A study of Mus musculus with 20 samples.

Results

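The late-opening regions described here are stretches of mouse DNA that were listed as ATAC-seq peaks at 96 and 120 h after estradiol (E2) withdrawal and in no list from 0 to 72 h. They numbered 377 of 88351 regions, or 0.427% of all regions built by joining overlapping peaks of the 10 deposited lists. Because they were selected on those lists, their absence before 96 h and their presence at both late times are the definition and not a result. ATAC-seq marks accessible chromatin by letting the transposase Tn5 cut and tag open DNA. The cells were ER-Hoxa9-Lys-GFP cells of strain C57BL/6 grown in vitro, in which a fusion of the homeobox factor Hoxa9 to the estrogen receptor depends on E2. As background knowledge of this line has it, a green fluorescent reporter sits at the lysozyme gene. All 20 samples were of these cells, in medium with conditioned supernatant that supplies stem cell factor, and they comprised 2 replicates with E2 (0 h) and a further 2 for each of the 9 times after its removal by washing (4, 8, 12, 24, 36, 48, 72, 96 and 120 h). The labels do not say whether the line is 1 clone. Nuclei of 1 preparation were shared out to 2 transposition reactions, per the labels' protocols, and replicates may thus be technical.

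Each time point had 1 peak list for both replicates, so no spread between replicates and no p-value could be computed. Intervals in brackets are 95% Wilson intervals, which cover counting error only. Read depth is unknown, because the lists carry no counts. The longest list, of 24 h, held 62559 peaks, and those of 72, 96 and 120 h held 46837, 29806 and 23620. The late-opening regions therefore come from the shortest lists, in which peaks were also widest, with a median of 547 bp at 96 h and 617 bp at 120 h against 487 bp at 72 h.

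As background, an active Hoxa9 fusion holds myeloid progenitors in an immature, dividing state, and loss of its ligand lets them mature towards neutrophils. Maturing neutrophils fill their granules in sequence, with proteases of the primary granules first and with lactoferrin, cathelicidin and other secondary and tertiary granule proteins later. Distal elements such as enhancers are opened by lineage factors of the C/EBP, PU.1 and AP-1 families, whereas many promoters rich in CG dinucleotides stay accessible in most cell types.

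Promoters made up a small share of the late-opening regions, and most of those with a sequence at hand had few CG dinucleotides. The 150 bases directly before the outermost start site are given for 7 of them, as picked examples. They do not show the mix of the set, in which other windows were also rich in CG, such as Unkl with 42 and Myo1c with 32. All were read from RefSeq promoter windows of GRCm38.p6 (the same sequence as mm10), 5′ to 3′ along the gene's strand. Capitals mark CG dinucleotides, and each stretch lies wholly inside its late-opening region. Stfa2, Slfn2, Il1f9, Acod1 and Mcemp1 are genes of neutrophil and inflammatory biology, Oasl1 belongs to the interferon response, and Ptprj is shown as a contrast rich in CG.
Stfa2 (chr16:36408364-36408513, minus strand): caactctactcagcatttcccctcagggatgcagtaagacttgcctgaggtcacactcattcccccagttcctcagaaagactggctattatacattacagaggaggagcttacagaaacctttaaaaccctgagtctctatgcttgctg
Slfn2 (chr11:83064962-83065111, plus strand): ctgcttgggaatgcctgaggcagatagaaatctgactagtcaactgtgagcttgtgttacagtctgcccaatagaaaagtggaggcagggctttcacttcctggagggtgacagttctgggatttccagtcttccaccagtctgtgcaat
Il1f9 (chr2:24186326-24186475, plus strand): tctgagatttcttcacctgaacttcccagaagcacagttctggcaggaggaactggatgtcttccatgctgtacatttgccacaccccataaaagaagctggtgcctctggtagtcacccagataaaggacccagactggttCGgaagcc
Acod1 (chr14:103046862-103047011, plus strand): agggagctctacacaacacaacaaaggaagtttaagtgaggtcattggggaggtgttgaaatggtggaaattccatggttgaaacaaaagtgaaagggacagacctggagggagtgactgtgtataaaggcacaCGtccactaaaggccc
Mcemp1 (chr8:3665612-3665761, plus strand): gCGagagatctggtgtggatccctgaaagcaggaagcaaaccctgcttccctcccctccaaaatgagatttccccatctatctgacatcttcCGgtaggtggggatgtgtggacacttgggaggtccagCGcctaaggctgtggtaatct
Oasl1 (chr5:114922993-114923142, plus strand): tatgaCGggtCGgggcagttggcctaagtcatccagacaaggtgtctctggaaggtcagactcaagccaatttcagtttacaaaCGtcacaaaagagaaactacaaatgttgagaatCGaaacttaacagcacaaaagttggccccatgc
Ptprj (chr2:90580695-90580844, minus strand): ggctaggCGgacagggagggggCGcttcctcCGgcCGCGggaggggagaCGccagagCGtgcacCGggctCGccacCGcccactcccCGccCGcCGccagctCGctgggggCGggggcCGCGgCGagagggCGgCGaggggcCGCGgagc
These stretches held 0 CG at Stfa2 and Slfn2, 1 at Il1f9 and Acod1, 3 at Mcemp1 and 4 at Oasl1, against 22 at Ptprj.

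The late-opening regions were distal. Only 26 of the 377 (6.90%, 4.75 to 9.91%) lay within 1000 bp of a transcription start site (TSS), against 40.2% of the 20994 regions that were listed at 96 and 120 h and at some earlier time. Among all 88351 regions the promoter share was 14.5%. The 279 regions first listed at 72 h and kept at 96 and 120 h had 5.73% promoters, with an interval (3.56 to 9.11%) that overlapped that of the late-opening ones. Intergenic DNA held 191 late-opening regions (50.7%, 45.6 to 55.7%) and introns held 148 (39.3%, 34.5 to 44.3%). In the regions also listed earlier these shares were 30.4% and 31.3%, and over all regions they were 41.6% and 41.6%. Regions first listed at 72 h had 52.0% and 40.1%, both inside the intervals of the late-opening ones. Exons held 5 late-opening regions (1.33%), against 2.6% of all regions. Sites near a transcript's end held 10 (2.65%), against 1.8% of all regions. The median distance to the nearest TSS was 18992 bp (middle 50% of regions 6570 to 47464 bp), against 5542.5 bp for regions also listed earlier and 17430 bp for all regions. A distance over 100 kb was found for 45 late-opening regions (11.9%), and 183 of the 377 (48.5%) lay upstream of their nearest TSS.

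**Figure D1:**
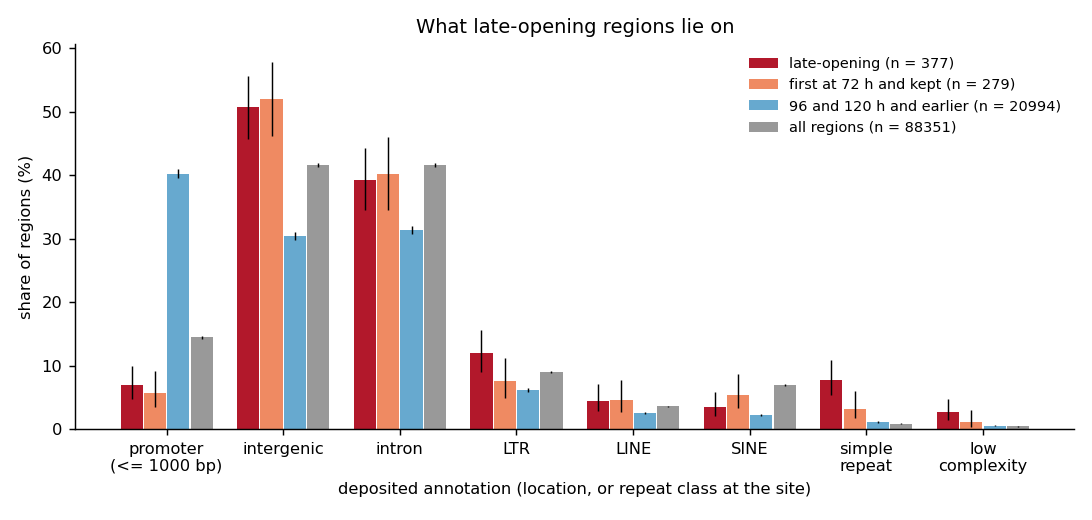
Share of regions (vertical axis, %) in each deposited annotation (horizontal axis) for late-opening regions (red), regions first listed at 72 h and kept (orange), regions listed at 96 and 120 h and earlier (blue) and all regions (grey). Lines are 95% Wilson intervals; the late-opening bars show 6.90% promoters against 40.2% in regions also listed earlier, and 7.69% simple repeats against 1.14%.

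The nearest gene of an intronic region was not always the gene that held it. Of the 148 intronic late-opening regions, 115 lay in an intron of the gene with the nearest TSS and 33 in an intron of another gene. The region assigned to Ltf, for example, lay in the gene Gm10030, that assigned to Gfi1 in Evi5, that assigned to Klf2 in Eps15l1 and that assigned to Samhd1 in Rbl1. Gene names below are the nearest gene as deposited, which is an assignment by distance.

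Simple repeats were more common among late-opening regions than among regions also listed earlier or all regions. Simple repeats, runs of a short motif, held 29 of the 377 (7.69%, 5.41 to 10.8%), against 3.23% of regions first listed at 72 h, 1.14% of regions also listed earlier and 0.91% of all regions. Low-complexity stretches held 10 (2.65%), against 1.08%, 0.56% and 0.48% in the same 3 sets. Satellite DNA, the tandem repeat of centromeres, held 5 (1.33%), against 0.358%, 0.195% and 0.138% in the same 3 sets. Ribosomal RNA repeats also held 5 (1.33%, 0.568 to 3.07%), against 2.51% of regions first listed at 72 h, 0.291% of regions also listed earlier and 0.118% of all regions. Together these 4 kinds of repeat held 49 late-opening regions (13%, 9.97 to 16.8%), against 20 of 279 (7.17%, 4.69 to 10.8%), 460 of 20994 (2.19%) and 1451 of 88351 (1.64%). The interval of the late-opening regions overlapped that of the regions first listed at 72 h. Reads from such sequences often match several places in a genome, and the treatment of such reads by the authors is not known here. Their part in the results was not tested, but the main shares were also computed over the other 328 regions: promoters then made up 7.93% and the median TSS distance was 18018 bp.

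Transposable elements were about as frequent as in the genome-wide set of regions. SINE, LINE, LTR and DNA elements together held 78 late-opening regions (20.7%, 16.9 to 25.1%), against 11.4% of regions also listed earlier and 20.4% of all regions. LTR elements, which descend from retroviruses, were the most frequent class with 45 regions (11.9%, 9.04 to 15.6%), against 7.53% of regions first listed at 72 h, 6.16% of regions also listed earlier and 8.99% of all regions. The families were ERVK with 19 regions, ERVL-MaLR with 16, and ERV1 and ERVL with 5 each. L1 elements held 15 regions and Alu-type SINEs held 8. SINEs in all held 3.45% (2.03 to 5.81%), against 5.38% of regions first listed at 72 h, 2.25% of regions also listed earlier and 6.99% of all regions.

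Late-opening peaks were narrow for the lists they came from. Their median width was 371 bp at 96 h (middle 50% 298 to 490 bp) and 412 bp at 120 h (308 to 534 bp). Regions also listed earlier had medians of 654 and 644 bp at these times, and regions first listed at 72 h had 427 and 438 bp. At 96 h 62 of the 377 late-opening peaks reached the median width of their list, and at 120 h 43 did. Their median percentile among the widths of the list was 26.7 at 96 h and 23.0 at 120 h. A peak's deposited score was 0 throughout, so width is the only measure of size at hand.

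The peaks of both late lists overlap in each late-opening region by definition, and their placement is given as a description. Each of the 377 regions held 1 peak per list, the narrower of the pair was covered by the wider to a median of 100%, and the smallest overlap was 150 bp. The centres of the pair lay a median of 17 bp apart. The peak was wider at 120 h in 222 regions, wider at 96 h in 146 and equally wide in 9. Over the 377 regions the Pearson correlation of the 2 widths was 0.82, a description only, since both lists come from the same cells and the same sites.

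**Figure D2:**
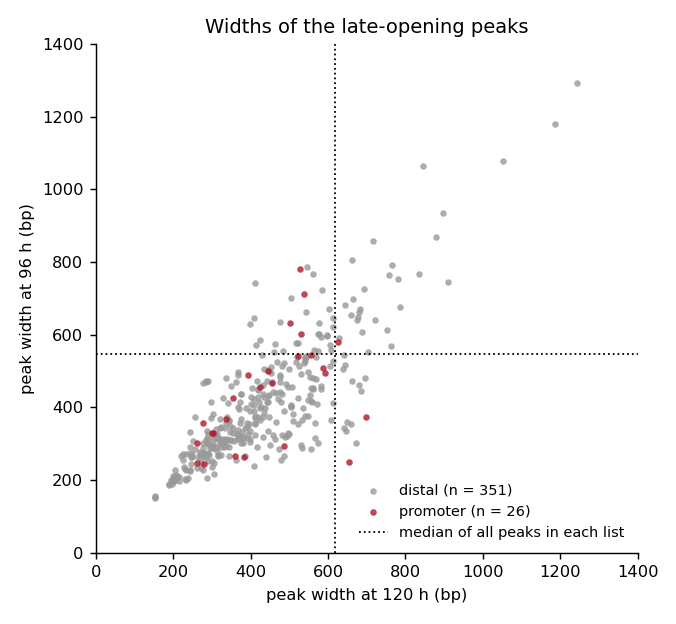
Peak width in bp at 120 h (horizontal axis) and at 96 h (vertical axis) of each of the 377 late-opening regions; 351 distal regions are grey, 26 promoter regions red, and dotted lines mark the median width of all peaks in each list. Most points lie below and to the left of the dotted lines at 547 and 617 bp.

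Many regions lay just outside the definition. Besides the 377, 520 regions were listed at 96 h alone and 255 at 120 h alone. Of the 897 regions first listed at 96 h, 42.0% (38.8 to 45.3%) were listed again at 120 h, and these are the late-opening regions. Among the 28539 regions listed at 96 h and earlier the share was 73.6% (73.05 to 74.1%). Both shares come from the listing that the definition used and are a description. Width was not accounted for: the median at 96 h was 371 bp in late-opening regions and 654 bp in regions also listed earlier and kept at 120 h. On the other side, 360 regions of both late lists had been present in exactly 1 earlier list. That list was 72 h for 279 of them, 48 h for 37, 36 h for 11, 24 h for 13 and one before 24 h for the rest. Late-opening regions were 1.76% (1.60 to 1.95%) of the 21371 regions listed at both late times. Their number also moved when narrower peaks were left out, which shortens the lists at the same time. An earlier peak left out for its width then counts as absent. With every list cut to its 23620 widest peaks, the length of the 120 h list, 2347 regions met the same rule, and with the widest 50% of each list 120 did.

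As a description, the regions held by a single pair of lists alone were counted for every pair. Among the 45 possible pairs of lists that of 96 and 120 h had rank 10, with 377 regions present in that pair and nowhere else. Pairs of neighbouring times held between 199 (72 and 96 h) and 941 (0 and 4 h), and the median of pairs that are not neighbours was 75.5. The pair of 4 and 8 h, long before the late phase, held 378. The 96 and 120 h lists were the shortest, and pairs of longer lists have more peaks to share. These numbers thus describe the lists, are no measure of rate and do not say whether the 96 and 120 h pair stands out.

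A 72 h peak lay within 10 kb of most late-opening regions, 252 of the 377 (66.8%, 61.9 to 71.4%). It lay within 2 kb of 31.6% and within 500 bp of 32 regions (8.49%). The median gap was 4046 bp and the smallest 77 bp. For regions first listed at 72 h the share with a 48 h peak within 10 kb was 75.6% (70.3 to 80.3%), in a longer list. Such a share was not computed over all regions, so nearness to listed peaks cannot be called particular to the late-opening ones. Few late-opening regions lay near each other: 10 (2.65%) had another within 10 kb and 39 (10.3%) within 50 kb. For regions first listed at 72 h these shares were 2.87% and 10.0%, so the spacing was not particular to the late-opening ones. Every chromosome held some, with shares of its regions between 0.308% on chromosome 3 and 0.621% on chromosome 19, apart from 1 of 57 regions on Y.

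At the level of genes, 359 of the 19463 genes with any region (1.84%) were nearest to a late-opening region. A promoter region had been listed at some time from 0 to 72 h for 226 of these 359 (62.95%), against 11226 of the 19463 genes with any region (57.7%). Another 14 had no assigned peak in any list up to 72 h. Fgf21 and Sall1 were among them, named after their values were seen. The region assigned to Fgf21, a secreted metabolic hormone, lay 11609 bp from its start site, and that assigned to Sall1, a zinc finger developmental factor, lay 374906 bp away.

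Secondary and tertiary granule genes held 4 late-opening regions, each at a different gene. This list and those below were chosen with earlier results of these data known, so their shares and intervals are descriptions. Of the 114 regions assigned to the 26 genes of this list, these made up 3.51% (1.37 to 8.68%), against 0.427% of all regions. They were assigned to Ltf, Camp, Ngp and Anxa1, 4 of the 26 genes (15.4%, against 1.84% of all genes). A further 6 regions of the list had first been listed at 72 h and kept. Primary granule genes, filled earlier in maturation, had 0 late-opening among 104 regions, with an upper limit of 3.56%. The 2 intervals overlap. With lists cut to their 23620 widest peaks, 15 of 72 secondary and tertiary regions met the rule (20.8%) and 7 of 65 primary ones (10.8%), against 4.93% of all regions. In cut lists an earlier peak left out for its width counts as absent, so these regions need not have opened late. With the widest 50% of each list both granule lists had 2, of 57 and 59 regions. The contrast between the granule lists thus depended on how lists were trimmed.

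Ltf encodes lactoferrin, the iron-binding protein of secondary granules. Its late-opening region (chr9:111006316-111006920 in mm10) was 571 bp wide at 96 h and 605 bp at 120 h and lay 12674 bp upstream of the start site. A separate region at the Ltf start site was also listed at 96 and 120 h, but it had been listed at 8 h and so was not a member. Ngp, a cathelin-like granule protein, had its late-opening region 4334 bp upstream (chr9:110415122-110415750), with widths of 484 and 553 bp. Camp, the precursor of the antimicrobial peptide cathelicidin, had one 5096 bp upstream (chr9:109854389-109854715), with widths of 327 and 290 bp. Both lay in intergenic DNA outside annotated repeats. Anxa1, a calcium-dependent lipid-binding protein of the gelatinase granules, had a region 33492 bp from its start site (chr19:20356906-20357455), and this one covered a GA-rich low-complexity stretch. Without the low-complexity and other odd repeats the list kept 3 late-opening regions.

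Interferon response genes had 9 late-opening regions among 219 (4.11%, 2.18 to 7.62%), at 7 of the 51 list genes with a region. More than 1 lay at the same gene: Slfn1 and Slfn4 had 2 each, and Slfn2, Oasl1, Samhd1, Ifngr1 and Psmb9 had 1 each. Slfn genes encode the Schlafen proteins, which are induced by interferon and regulate growth of lymphoid and myeloid cells in mice. Without the Slfn genes the list had 4 late-opening regions among 195 (2.05%). With lists cut to their 23620 widest peaks, 16 of 143 regions of the full interferon list met the rule (11.2%), against 4.93% of all regions. Earlier peaks left out for their width count as absent there. The 5 Slfn regions are neighbours and should not be counted as independent, which the interval of the full list does not take into account.

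The Schlafen cluster on chromosome 11 held more late-opening regions than any other window of 1 Mb, by count. Between 83045589 and 83173659 it held 6 late-opening regions, assigned to Slfn10-ps, Slfn2, Slfn1 and Slfn4, out of 24 regions of any kind. The promoter region of Slfn2 (chr11:83064870-83065225) was 356 bp wide at 96 h and 276 bp at 120 h. Downstream of Slfn1 lay a neighbouring pair, at 83125702 to 83126127, on a TC simple repeat, and at 83126436 to 83126915. Upstream of Slfn4 lay regions at 83149747 to 83150354, 599 and 598 bp wide, and at 83173106 to 83173659, 538 and 520 bp wide and 1812 bp from the start site. Slfn genes are close copies of each other, and reads that fit more than 1 copy could have been placed at either, so which copy opened is uncertain. A 72 h peak lay 276 to 1449 bp away from the Slfn1, Slfn2 and Slfn4 regions.

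**Figure D3:**
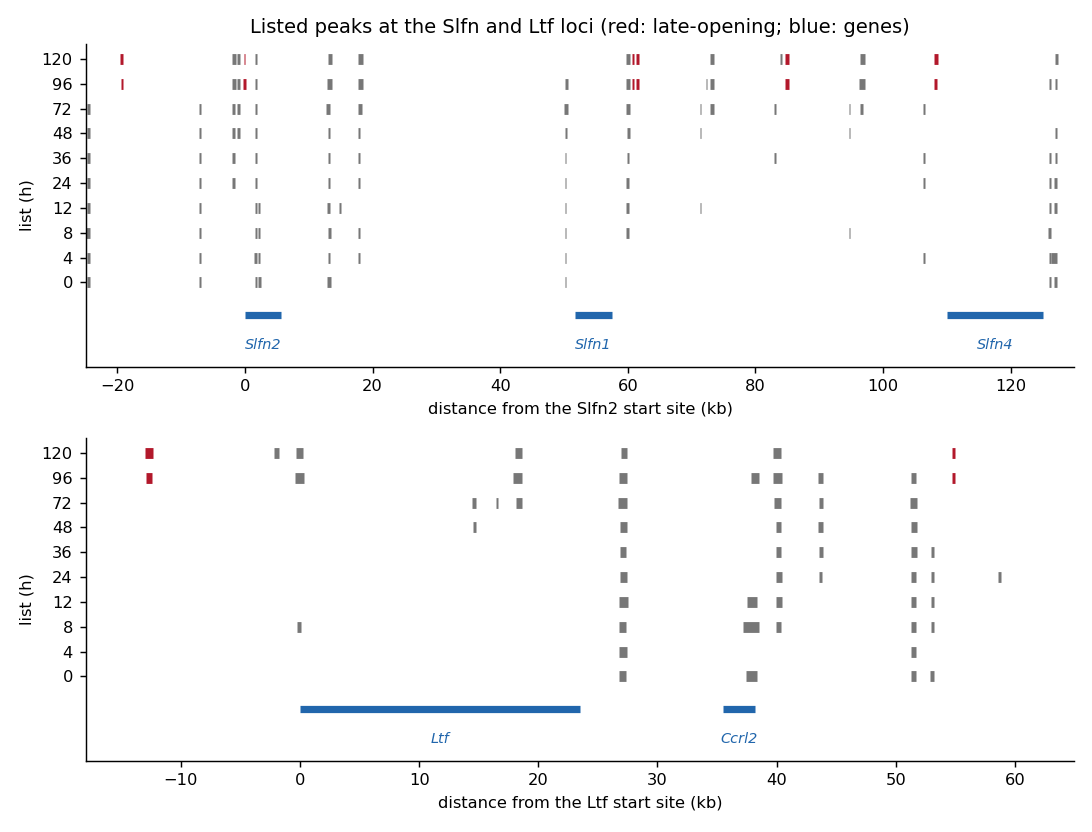
Listed peaks (bars) in each of the 10 lists (vertical axis, h after E2 withdrawal, 0 h at the bottom) along the Slfn cluster (upper panel) and the Ltf locus (lower panel), by distance in kb from the start site of Slfn2 or Ltf (horizontal axis). Late-opening peaks are red, other peaks grey and gene bodies blue; 6 late-opening regions are seen in the upper panel and 1 upstream of Ltf and 1 beyond Ccrl2 in the lower one.

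Other interferon genes had single regions. Oasl1, a relative of the antiviral oligoadenylate synthetases, had its promoter listed late, with widths of 543 bp at 96 h and 557 bp at 120 h, and the nearest 72 h peak lay 188 bp away. Samhd1, which degrades deoxynucleotides and so limits viruses, had one of the widest late-opening regions, 1064 bp at 96 h and 845 bp at 120 h, 30613 bp upstream. Psmb9, a subunit of the immunoproteasome, and Ifngr1, the binding chain of the interferon gamma receptor, had intergenic regions 13051 bp downstream and 44826 bp upstream of their start sites.

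Inflammatory and NF-kB genes had 5 late-opening regions among 522 (0.958%, 0.410 to 2.22%), at Tnip1, Cxcl16, Tnfaip2, Acod1 and Casp4. The interval contains the background of 0.427%. Tnip1 restrains NF-kB signalling, and its region 9459 bp upstream was among the widest, with 744 bp at 96 h and 911 bp at 120 h. Cxcl16, a membrane-bound chemokine, had a region of 593 and 582 bp, 8002 bp upstream and 15216 bp from the nearest 72 h peak. Tnfaip2, a gene induced by tumour necrosis factor, had one of 495 and 592 bp at 939 bp upstream. Acod1 encodes the enzyme that makes itaconate, a metabolite of activated myeloid cells, and its promoter region measured 246 bp at 96 h and 260 bp at 120 h. Casp4, the mouse sensor of intracellular lipopolysaccharide, had a region of 265 and 315 bp in intron 1, on an RLTR17 element of the ERVK family.

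Neutrophil surface and chemotaxis genes had 3 late-opening regions among 400 (0.750%, 0.255 to 2.18%). C5ar1, the receptor through which complement fragment C5a attracts neutrophils, had its promoter listed late (chr7:16259109-16259649), 541 bp wide at 96 h and 522 bp at 120 h. P2ry13, a receptor for ADP, had a region on a TG simple repeat 1723 bp upstream of its start site, inside an intron of Med12l. Ccrl2, an atypical receptor that presents chemerin, had a narrow region of 235 and 227 bp on an ORR1E element. Ccrl2 lies next to Ltf, and the 4 late-opening regions of Ngp, Ccdc12, Ltf and Ccrl2 fell within 1 Mb of each other, among 66 regions between 110415122 and 111074256 of chromosome 9.

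**Figure D4:**
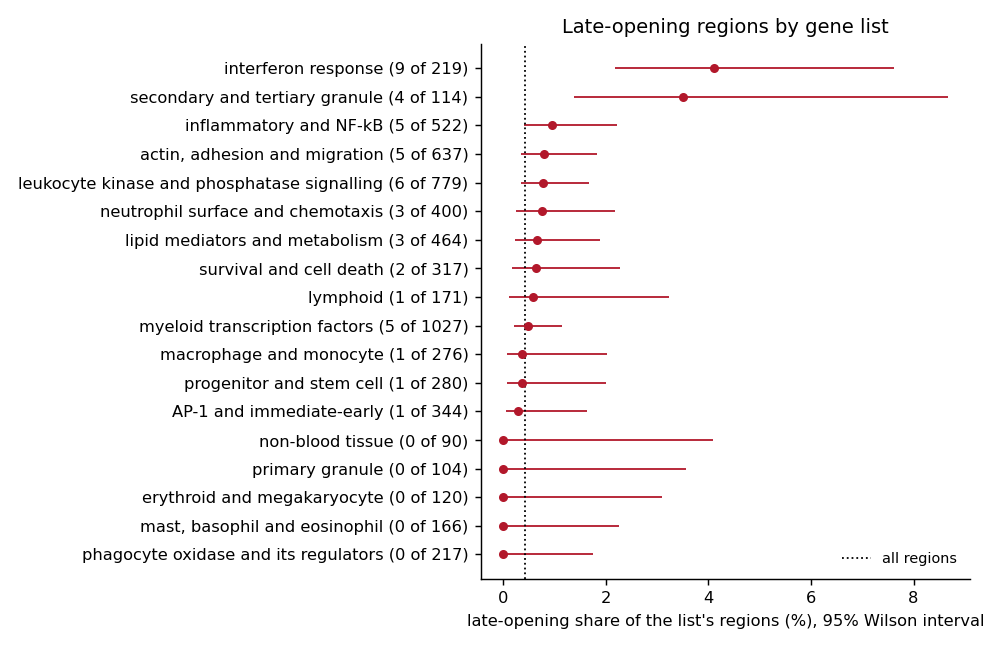
Share of each gene list's regions that were late-opening (horizontal axis, %), with 95% Wilson intervals; the counts stand beside each list name, and the dotted line marks the 0.427% of all regions. The interferon response list (4.11%) and the secondary and tertiary granule list (3.51%) lie to the right of the line with their whole interval, and the other 16 intervals contain it. The lists were chosen with earlier results of these data known, so these positions are a description and no test. The interferon interval also counts neighbouring Slfn regions as if they were independent.

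Regulators of myeloid identity took part at about the background rate. Myeloid transcription factor genes had 5 late-opening regions among 1027 (0.487%, 0.208 to 1.14%). These were assigned to Klf7, Hif1a, Gfi1, Irf2 and Klf2, all at least 20658 bp from the start site. Gfi1 is a repressor needed for neutrophil development, Irf2 a repressor of interferon signalling and Hif1a the factor that responds to low oxygen. The region of Irf2 was the widest of them, with 727 bp at 96 h and 694 bp at 120 h, and lay in the last intron of the gene. AP-1 and immediate-early genes had 1 among 344, at Fosl2, of 702 bp at 96 h and 503 bp at 120 h.

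Signalling and cytoskeletal genes had a few regions each. Kinase and phosphatase genes had 6 among 779 (0.770%), of which 2 lay in intron 5 of Pde4b, the phosphodiesterase that lowers cyclic AMP in leukocytes. The others were at Mapk14, a stress-activated kinase, at the receptor phosphatase Ptprj, at Ptpn12 and at Prkcb. Actin, adhesion and migration genes had 5 among 637 (0.785%), at Dock10, Marcks, Elmo1, Fmnl2 and Iqgap1, of which those at Marcks and Iqgap1 covered low-complexity sequence. Lipid mediator and metabolism genes had 3 among 464 (0.647%), at Hif1a, Ptgs1 and Acsl1, and survival genes had 2 among 317 (0.631%), at Bmf and Casp4. All 4 intervals contained the background of 0.427%.

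Markers of other cell types held late-opening regions at shares near the background of 0.427%, or none. Macrophage and monocyte genes had 1 among 276 (0.362%), 19210 bp upstream of Csf1r, the receptor for macrophage colony-stimulating factor. Progenitor genes had 1 among 280 (0.357%), 25743 bp upstream of Erg, and lymphoid genes 1 among 171 (0.585%), assigned to Ncr1, a receptor of natural killer cells. No late-opening region was found among 120 regions of erythroid and megakaryocyte genes, 166 of mast cell, basophil and eosinophil genes, or 90 of genes of other tissues. The phagocyte oxidase and its regulators, a list of phagocyte function and not of another cell type, also had none, among 217 regions. The upper limits of these shares lay between 1.74% and 4.09%, above the background, so a share at the background rate was not detectable at this number of regions. A peak near a gene is no measure of its expression.

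Among the 26 promoter regions, those widest at 120 h were at Fcrlb, F9, Rgl2, Tnfaip2, Agmo, Oasl1, Pla1a, Stfa2, Ptprj and C5ar1. The other 16 were at Sumo3, Slc39a4, Myo1c, Unkl, Tank, Znrf1, Dpep2, Mir8094, Pgf, Mir203, Il1f9, Gm5544, Tcirg1, Slfn2, Mcemp1 and Acod1. Fcrlb, an Fc receptor-like protein, had 373 bp at 96 h and 698 bp at 120 h, in intron 2 and 380 bp past the start site. Stfa2, one of the stefin A inhibitors of cysteine proteases, had 603 bp at 96 h and 529 bp at 120 h, and its nearest 72 h peak was 12115 bp away. It belongs to a family of close copies, so its assignment is uncertain. Agmo, which cleaves ether lipids, had 508 and 587 bp, and the nearest 72 h peak was 397960 bp away. Il1f9, an interleukin of epithelial and myeloid cells, had 330 and 302 bp, and Mcemp1, a membrane protein of myeloid cells, had 301 and 261 bp.

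RefSeq promoter windows, which run from 250 bases before to 50 bases after a start site, were matched for 21 of the 26 promoter genes. In 16 the window overlapped the late-opening region and in 6 it lay wholly inside it. The windows held a median of 3 CG dinucleotides, against 22 for the 6498 promoters of regions also listed earlier and 7 for the 27025 RefSeq genes with a window. At most 4 CG were present in 12 of 21 (57.1%, 36.6 to 75.5%), against 4.68% (4.19 to 5.22%) of promoters also listed earlier and 38.3% of all RefSeq promoters. The interval contained the share of all RefSeq promoters, so few CG set these windows apart only from promoters also listed earlier. Counting windows that overlapped the region, 11 of 16 (68.75%, 44.4 to 85.8%) had at most 4 CG, against 3.79% of promoters also listed earlier. Promoters first listed at 72 h and kept gave nearly the same picture, with 7 of 12 (58.3%, 32.0 to 80.7%) and a median of 3.5 CG. The late-opening windows were not uniform: Stfa2 had 0 CG and Agmo, Il1f9 and Fcrlb had 1, whereas Myo1c had 32 and Ptprj and Unkl had 42. Median GC content was 52.0%, against 61.7% for promoters also listed earlier and 52.7% for all.

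The same windows were searched on both strands for short motifs, and matches are given as descriptions. Shares cover all 21 windows, of which 16 overlapped the late-opening region, so a match need not lie in opened sequence. The C/EBP matches at Tcirg1 and Agmo and the PU.1 match at Fcrlb lay outside their regions. The C/EBP motif TTGCNNAA was present in 4 of 21 late-opening windows (19.0%, 7.67 to 40.0%), against 8.39% of promoters also listed earlier and 10.75% of all RefSeq promoters. PU.1 (GAGGAAG) was present in 4 (19.0%), against 13.7% and 13.5%. AP-1 (TGANTCA) was present in 3 (14.3%, 4.98 to 34.6%), against 4.40% and 7.93%. The GC box GGGCGGG was present in 6 (28.6%, 13.8 to 49.96%), against 52.1% of promoters also listed earlier, and 25.75% of all. With 21 windows, all of these intervals except that of the GC box against promoters also listed earlier, and that of AP-1 against the same set, contained the value beside them. In the 250 bases before the start site alone, AP-1 was present in 1 of 21 (4.76%, 0.846 to 22.7%), against 3.86% of promoters also listed earlier, inside the interval.

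Of the other motifs searched, MEIS (TGACAG) was present in 7 windows (33.3%, 17.2 to 54.6%), against 16.7% of promoters also listed earlier, outside the interval, and 19.3% of all, inside it. In the 250 bases before the start site alone it was present in 5 (23.8%, 10.6 to 45.1%), against 13.85% of promoters also listed earlier, inside the interval. KLF (GGGNGTG), which can overlap a GC box, was present in 8 (38.1%), against 36.6% and 29.0%. IRF (GAAANNGAA) was present in 2 (9.52%), against 7.002% and 8.57%, and the paired half-sites ACANNNTGT of the glucocorticoid receptor in 2 (9.52%), against 3.37% and 6.91%. NF-kB was present in 1 (4.76%), against 4.76% and 4.35%. No match was found in these windows for CRE (TGACGTCA), which 1.88% of all RefSeq promoters held, or for RUNX (TGTGGTT), with 5.37%. The same was true of STAT (TTCCNGGAA), with 1.15%, and of the E-box CACGTG, with 7.24%. The motif AGATAAG of the erythroid zinc finger family of Gata1, in 3.08% of all RefSeq promoters, and CTCF, in 0.551%, were also not matched. Counted from the start site of the window, which at Oasl1, C5ar1 and Ptprj lies inside the outermost one, C5ar1 had an IRF match beginning 66 bases upstream, Oasl1 an NF-kB match at 14, Slfn2 a C/EBP match at 168, and Ptprj PU.1 matches at 225 and 72.

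Peaks assigned to single genes show what surrounded the late regions. Stfa2 had 0 peaks until 12 h, then 1 until 48 h, 2 in the 72 h list and 3 in both later ones. Slfn4 had at most 2 until 48 h, and 4, 3 and 4 in the 72, 96 and 120 h lists. Casp4 had none with E2, 1 in each list of 4 to 24 h, none in those of 36 to 72 h and 2 in both later ones. These counts include the late-opening regions themselves, which the definition adds to the late lists alone. Without them, Stfa2 had 2 peaks at both late times, as at 72 h, and Casp4 had 1, as in the lists of 4 to 24 h. Slfn4 then had 1 at 96 h and 2 at 120 h, below its 4 at 72 h. Acod1 had 2 in every list up to 72 h and 3 at both late times. Camp had 1 in every list up to 72 h except 24 h, where it had 0, and 2 at both late times. Oasl1 had none with E2, 1 at 4 h, 2 in each list of 8 to 72 h and 3 at both late times. The late-opening region makes up the whole of these differences from 72 h at Acod1, Camp and Oasl1, so they are part of the definition and not a result.

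At other genes the late region appeared while the gene's total of peaks was below its highest. Erg, a progenitor factor, had 12 peaks with E2, a highest count of 18 at 24 h, and 4 in both late lists. Gfi1 had 8 with E2, a highest count of 9 at 36 and 48 h, and 3 and 2 in the 96 and 120 h lists. Elmo1, which helps to activate Rac in migrating cells, had 19 with E2, a highest count of 25 at 48 h, and 11 and 10 in the late lists. Prkcb, a protein kinase C, had 13 with E2, a highest count of 23 at 36 h, and 13 and 9 in the late lists. C5ar1 had its highest count of 4 with E2, against 3 in both late lists. Ngp had 3 at 24 and 48 h against 2 in both late lists, and Samhd1 had 7 at 72 h against 5. The whole lists shortened over the same times, and the part of list length in these counts was not tested.

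**Figure D5:**
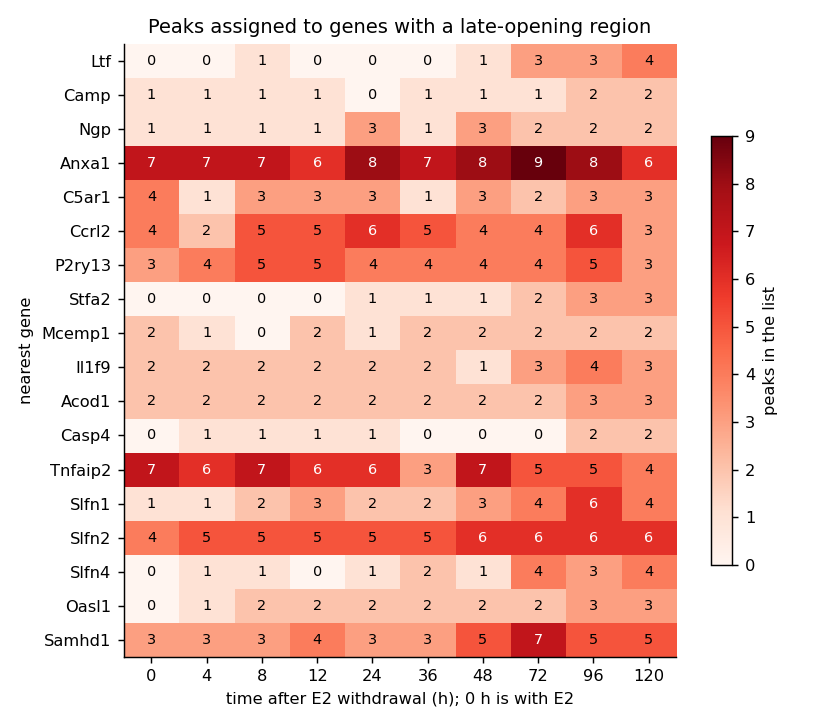
Number of peaks assigned to each of 18 genes with a late-opening region (vertical axis) in each list (horizontal axis, h after E2 withdrawal; 0 h is with E2), printed in the cells and shown by depth of red. The late counts include the late-opening regions, which by definition add at least 1 at 96 and 120 h, and the highest late counts of Stfa2, Camp, Acod1, Oasl1 and Casp4 rest on them. Anxa1, Tnfaip2, C5ar1, Ngp and Samhd1 have their highest counts at earlier times only.

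Genes with several late-opening regions were few: 17 of the 359 had 2 or more and 1 had 3. The gene with 3 was Mir101c, and its regions of 150 to 157 bp all lay on GSAT_MM satellite repeats at the proximal end of chromosome 9. That gene was assigned 30 regions and had 25 peaks at 0 h already, and reads from such repeats cannot be placed with certainty. Those with 2 included Slfn1, Slfn4, Pde4b, Edn1, which encodes the vasoconstrictor endothelin, Cyfip1, a subunit of the WAVE actin complex, Asph, Zfat, Tmem167 and Gm21188. Both regions of Cyfip1 were intronic, at 4413 and 17524 bp from the start site. One region of Edn1 was 582 bp long, and the other, of 198 bp, covered a CCCTAA simple repeat. The regions of Gm21188 lay on 2 copies of the RLTR19C element.

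The widest late-opening regions were mostly intergenic or intronic and included repeats. Widths at 120 h were 1242 bp at Gm5294, on a TTC simple repeat in Fam20c, 1187 bp at Dytn and 1053 bp at 9230019H11Rik. They were followed by Tnip1 with 911 bp, Tasp1 with 898 bp, Gm46545 with 878 bp, Samhd1 with 845 bp, Ndufaf7 with 834 bp, Sirpb1b with 787 bp and Exoc1 with 780 bp. Sirpb1b, a signal-regulatory receptor of myeloid cells, belongs to a family of close copies, so its assignment is uncertain. Exoc1, a subunit of the exocyst, had its region on an MTD element of the ERVL-MaLR family.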

How the data were processed

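Accessible chromatin of cultured ER-Hoxa9-Lys-GFP cells was mapped by ATAC-seq in 20 samples, 2 at each of 10 times. The authors deposited 1 annotated peak list per time, which belongs to both replicates. The sources used here do not say whether reads or peaks were pooled, or whether reads were shifted for Tn5. The submitters' processing notes name the tools MACS2 2.0, BWA and STAR 2.5, without saying what each did, and the build mm9. HOMER annotated the deposited peaks against mm10, per the file headers, and coordinates are given as mm10, counted from 1. Under that annotation 40.2% of the regions listed at 96 and 120 h and earlier lay within 1000 bp of a TSS. The deposited peak score was 0 for all 504887 peaks and was not used. The deposited distance to the TSS, also held as a score column, gave promoters and distances.

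Peaks of the 10 lists that overlapped by at least 1 bp were joined by chaining into 88351 regions. Each took the annotation and nearest gene of its widest peak, and was present in a list that held one of its peaks. Late-opening regions were absent from every list from 0 to 72 h and present at 96 and 120 h. They were set beside regions first listed at 72 h and kept, regions listed at 96 and 120 h and earlier, and all regions. No test was run, because replicates had no lists of their own. Shares carry 95% Wilson intervals. The members and the 18 gene lists were chosen with earlier results of these data known. Of the 795 list symbols, 758 were the nearest gene of a region.

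Genes were named by rule: up to 10 with the most late-opening regions, the 10 widest promoter regions, the 10 widest regions and up to 4 per list. All other genes named, among them Slfn2, Il1f9, Mcemp1, Acod1, Psmb9 and Ifngr1, were chosen after their values were seen. Promoter sequences came from RefSeq windows of GRCm38.p6, 21 of 26 genes matched. No genome was used, so sequences of distal regions were not analysed here. On simulated lists the region step recovered all regions of the late-opening kind. Simulated sites were far apart and their peaks always overlapped, so this checked the code only and not crowded sites. The analysis ran in Python 3.11.15 with pandas 2.3.3, numpy 2.4.6, matplotlib 3.10.9 and scipy 1.17.1.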

Additional observations from a re-analysis of the deposited data

How the results depend on the processing

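No paired analysis was possible because each time point has 1 list for both replicates. For the same reason no replicate could be left out. Of 84 alternative values, 51 stayed within the spread allowed and 33 moved, and the number of late-opening regions moved in 4 settings. It was 120 with the widest 50% of each list and 2347 with lists cut to the shortest by width. Both of these also change the smallest width kept, and an earlier peak left out for its width counts as absent. The number was 656 with the 72 h list ignored and 1152 when either late list sufficed. With the widest 50% of each list the promoter share was 15.8%, the median TSS distance 10281 bp, the median width at 120 h 730 bp, the share within 10 kb of a 72 h peak 56.7% and the share with another late-opening region within 10 kb 0%. The list genes then held 20 late-opening regions, the secondary and tertiary granule list 2 and the interferon list 3. With lists cut to the shortest, the median TSS distance was 15530 bp, 55.1% lay within 10 kb of a 72 h peak and 15.4% within 10 kb of another. The list genes then held 286, the granule list 15 and the interferon list 16. With the 72 h list ignored, 5.18% lay within 10 kb of another, and the list genes held 75 and the granule list 10. With either late list, the median width was 390 bp, 5.99% lay near another, and the list genes held 122, the granule list 10 and the interferon list 18. Joining peaks up to 500 bp apart left 1.24% near another, and a promoter distance of 2000 bp gave 10.6% promoters. Within 2 kb and 50 kb of a 72 h peak lay 31.6% and 91.0%, and 10.3% lay within 50 kb of another. In alternatives added after the data were seen, regions off simple, low-complexity, satellite and rRNA repeats lay within 10 kb of a 72 h peak in 71.7% of cases, and the interferon list without Slfn genes held 4. The counts of 656 and 1152 follow from the changed definition. Ignoring the 72 h list adds the 279 regions first listed at 72 h and kept. Accepting either late list adds the 520 regions listed at 96 h alone and the 255 at 120 h alone. Changed distance limits shift a share by construction. The cause of the other shifts was not tested. The planned comparison of motif windows around region centres was not run, because no genome was used.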
